A study of Mus musculus with 9 samples.

Results

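Genes for platelet receptors and granule proteins were followed in mouse KSL cells. These are bone marrow cells sorted for c-Kit and Sca-1 and against lineage markers and IL7Ra, a gate that enriches blood stem cells and multipotent progenitors. The set was chosen by name, with earlier results of these data known. It holds 10 genes (Gp5, Gp9, Itga2b, Clec1b, F2r, Treml1, Selp, Pf4, Ppbp and Plek) out of 12393 measured. On the array they are represented by 14 of 22626 probe sets, and all 10 were tested, since no filter on dim signals was applied. The question asked of them was whether surface receptors and granule proteins changed together.

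The study compared 3 groups of 3 biological replicates, 1 Affymetrix array each, all on a C57BL/6 background. RUNX1(41-214) mice carried blood cells transduced with a retroviral vector for the RUNX1(41-214) fragment of the transcription factor RUNX1 and were sampled 4 months after transplantation. Runx1KO mice were Runx1 floxed/floxed with MxCre+/- and control mice were Runx1 floxed/floxed with MxCre-/-, both sampled 3 months after poly IC, an interferon inducer that switches on Cre under the Mx promoter. Control cells therefore share the floxed alleles and the poly IC of the Runx1KO group, but neither is named for the RUNX1(41-214) group. That group also differs from the others by transduction and transplantation, and no array of empty-vector cells was analysed here, so that these effects and those of the fragment cannot be told apart. The labels state neither the age of the mice nor whether animals were pooled. Where replicates did not come from separate mice, p-values measure only the spread between these samples.

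Megakaryocytes, the bone marrow cells that release platelets, make adhesion and signalling receptors for the platelet surface and fill alpha granules with proteins that are secreted on activation. Part of this programme is also transcribed at low levels in haematopoietic stem cells and multipotent progenitors, of which some are biased toward the megakaryocyte lineage. Among the 10 genes, 5 encode surface receptors, 2 encode receptors of the granule membrane that reach the surface on activation (Treml1 and Selp), 2 encode chemokines stored in granules (Pf4 and Ppbp) and 1 encodes a cytosolic signalling protein (Plek).

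In RUNX1(41-214) cells 7 of the 10 genes rose against control (1.73% of all genes were called higher there): Gp5, Itga2b, Clec1b, F2r, Treml1, Selp and Plek, by log2 fold changes of 0.69 to 3.38. In Runx1KO cells 3 rose (0.234% of all genes): Gp5, Itga2b and Treml1, by 1.29 to 2.67. The granule chemokine genes Pf4 and Ppbp passed the threshold in neither group, nor did the receptor gene Gp9. Not passing is not the same as no rise: Ppbp was at 2.03 in RUNX1(41-214) and 1.48 in Runx1KO. The difference between receptors and chemokines was not tested. The threshold was an adjusted p of 0.05 in limma's moderated test with Benjamini-Hochberg adjustment over all 12393 genes. Both comparisons use the same 3 control arrays and are therefore not independent. The 10 genes were chosen with earlier results of these data known, so their counts beside all-gene shares are no independent test.

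The deposited signal is a linear intensity per probe set. Group means, SDs and fold changes are on the scale of log2(signal + 16) after quantile normalization, where the added 16 understates changes of dim genes. Counts of genes whose arrays do not overlap are on the normalized scale. Levels are compared between arrays for 1 probe set and never between genes. In sorted cells in bulk, more cells of a type and more RNA per cell cannot be told apart.

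**Figure D1:**
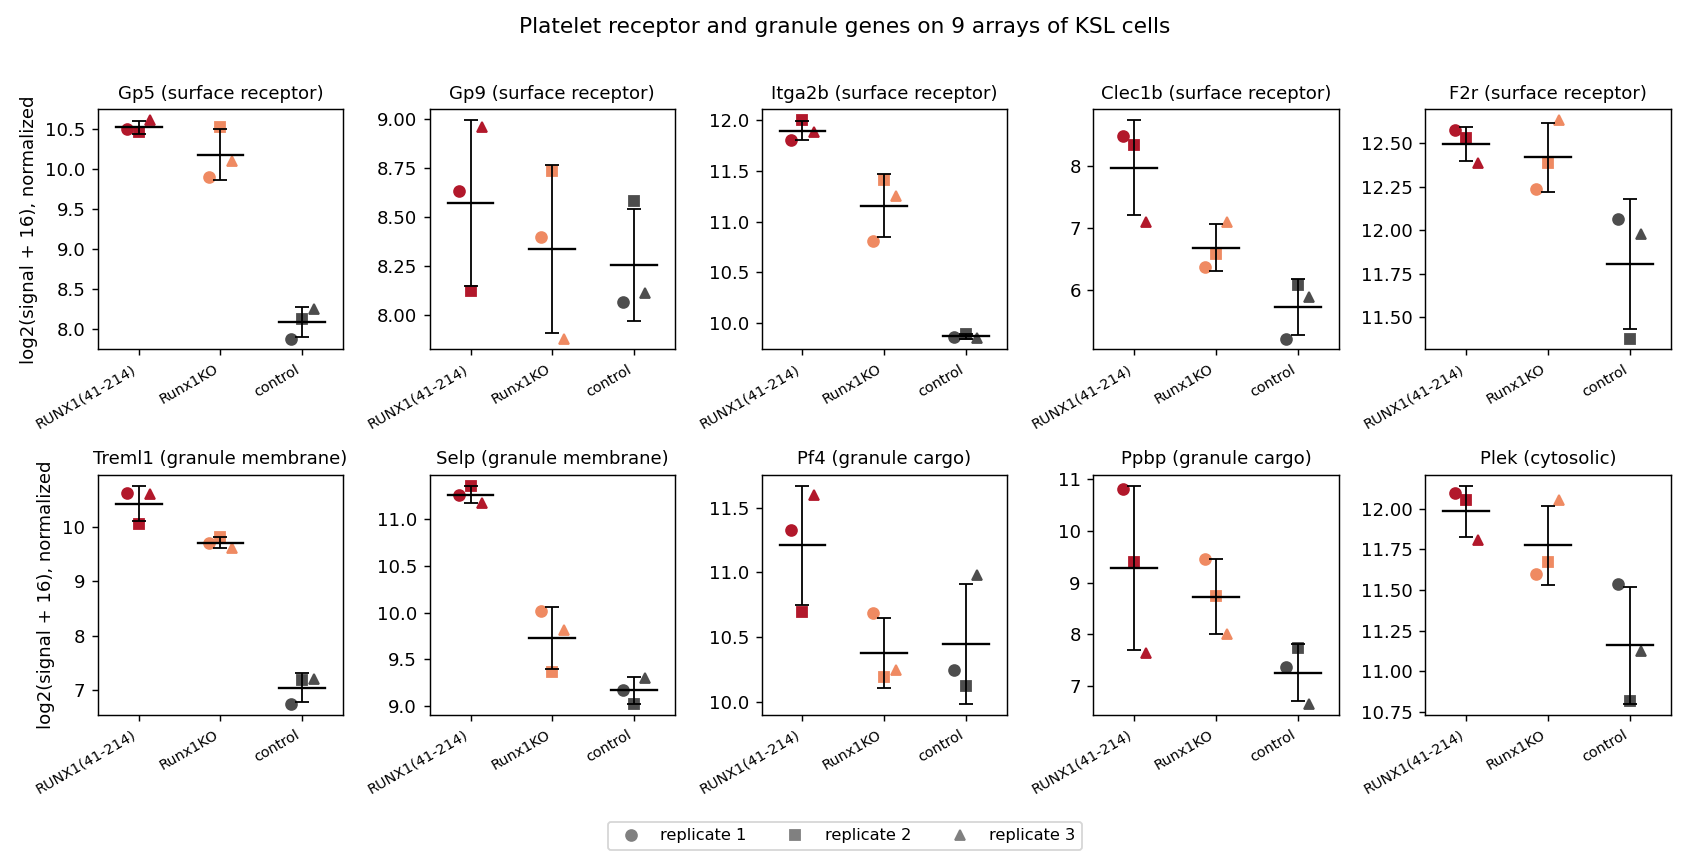
Normalized log2(signal + 16) of the 10 genes on each array (points, shaped by replicate), with group mean (line) and SD (bars), n = 3 per group. Gp5, Itga2b, Clec1b, F2r, Treml1, Selp and Plek are separated from control in both other groups. The Gp9 arrays of the 3 groups overlap, and those of Ppbp spread most in RUNX1(41-214).

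Gp5 encodes glycoprotein V, a subunit of the GPIb-IX-V complex that binds von Willebrand factor and that is cleaved by thrombin. Its signal was 1448, 1384 and 1524 in RUNX1(41-214) replicates 1, 2 and 3, 972, 1519 and 1018 in Runx1KO and 229, 269 and 298 in control cells. The groups of both RUNX1(41-214) and Runx1KO lay wholly above control and overlapped each other. The log2 mean was 10.52 ± 0.08 in RUNX1(41-214), 10.18 ± 0.32 in Runx1KO and 8.09 ± 0.19 in control cells (SD, n = 3 each). Against control, Gp5 rose 5.37-fold in RUNX1(41-214) (log2 fold change 2.43 ± 0.19, SE, adjusted p = 4.22e-05) and 4.24-fold in Runx1KO (2.08 ± 0.19, adjusted p = 0.000467). RUNX1(41-214) did not differ from Runx1KO past the threshold (0.34, 95% interval -0.08 to 0.77, adjusted p = 0.602).

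Gp9 encodes glycoprotein IX, a small subunit of the same complex. Its signal was 369, 244 and 484 in RUNX1(41-214), 337, 426 and 215 in Runx1KO and 261, 378 and 269 in control cells. The 3 groups overlapped fully. The log2 fold change against control was 0.32 in RUNX1(41-214) (95% interval -0.31 to 0.94, adjusted p = 0.676) and 0.08 in Runx1KO (-0.54 to 0.71, adjusted p = 0.988), and between these groups it was 0.24 (-0.39 to 0.86, adjusted p = 0.853). These intervals lie below those of Gp5 in both comparisons with control, although the difference between the genes was not tested. Gp1bb, which encodes another subunit and was picked with its values in view, was dim, with signals of 129, 52.4 and 126 in RUNX1(41-214), 82.3, 46.9 and 49.0 in Runx1KO and 43.8, 72.4 and 64.2 in control cells, and passed in no comparison (log2 fold change 0.67 ± 0.30 in RUNX1(41-214) against control, adjusted p = 0.315). Gp1ba had no probe set with a single gene name here.

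Itga2b encodes CD41, the alpha chain of the fibrinogen receptor and an early marker of the megakaryocyte lineage that some stem cells also carry. Its signal was 3688, 4145 and 3744 in RUNX1(41-214), 1844, 2807 and 2303 in Runx1KO and 914, 941 and 904 in control cells, so that no group overlapped another. The log2 mean was 11.89 ± 0.10 in RUNX1(41-214), 11.16 ± 0.31 in Runx1KO and 9.87 ± 0.02 in control cells (SD, n = 3 each). Itga2b rose 4.07-fold in RUNX1(41-214) against control (adjusted p = 2.80e-05) and 2.44-fold in Runx1KO against control (adjusted p = 0.00426). It was the surface receptor gene that also passed between RUNX1(41-214) and Runx1KO (log2 fold change 0.74 ± 0.15, adjusted p = 0.0372). That last call was lost, at log2 fold changes of 0.57 to 0.78, when RUNX1(41-214) replicate 1, 2 or 3, Runx1KO replicate 1 or 3, or control replicate 1 or 3 was left out (adjusted p 0.0524 to 0.208). The call against control in Runx1KO was lost when the RUNX1(41-214) arrays were left out of the fit (adjusted p = 0.0716). Itgb3, which encodes the beta chain that pairs with CD41, was read by a probe set near the bottom of the scale, with signals between 1.00 and 4.93 on the 9 arrays.

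Clec1b encodes CLEC-2, the platelet receptor for podoplanin. It was dim in control cells, with signals of 330, 286 and 120 in RUNX1(41-214), 68.8, 81.0 and 120 in Runx1KO and 21.3, 54.6 and 45.5 in control cells. The RUNX1(41-214) and Runx1KO arrays lay above control, and RUNX1(41-214) replicate 3 stood apart from its group, at the level of Runx1KO replicate 3. Clec1b rose in RUNX1(41-214) against control (log2 fold change 2.23 ± 0.37, SE, n = 3 each, adjusted p = 0.00480). With an offset of 1 in place of 16 its log2 fold change was 2.64. In Runx1KO against control it was at 0.95 ± 0.37 and did not pass (adjusted p = 0.534). Between RUNX1(41-214) and Runx1KO it was at 1.28 ± 0.37 (adjusted p = 0.169), which passed at 1.72 without RUNX1(41-214) replicate 3 (adjusted p = 0.0312).

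F2r encodes PAR1, a receptor activated by thrombin cleavage, which in mice is found more on other blood and vascular cells than on platelets. It has a pair of probe sets, and they differed in the size of the change. The brighter one, which represents the gene, had signals of 6280, 6004 and 5390 in RUNX1(41-214), 4973, 5432 and 6037 in Runx1KO and 4335, 2660 and 3773 in control cells. The dimmer one had 4021, 3847 and 2879 in RUNX1(41-214), 2312, 2231 and 2230 in Runx1KO and 1109, 974 and 893 in control cells, and on it no group overlapped another.

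On the brighter probe set F2r rose by 0.69 ± 0.16 on the log2 scale in RUNX1(41-214) against control (SE, adjusted p = 0.0367) and was at 0.61 ± 0.16 in Runx1KO (adjusted p = 0.211). The RUNX1(41-214) call was lost without RUNX1(41-214) replicate 1, 2 or 3, Runx1KO replicate 2 or control replicate 3 (0.65 to 0.78, adjusted p 0.0552 to 0.148). On the dimmer one the log2 fold change was 1.80 ± 0.14 in RUNX1(41-214) (adjusted p = 6.49e-05) and 1.17 ± 0.14 in Runx1KO (adjusted p = 0.0103) in a fit of all 22626 probe sets. In the same fit the brighter one was at an adjusted p of 0.0513 in RUNX1(41-214). The names of both end in _s_at, which marks probe sets that match more than 1 transcript. The other thrombin receptor genes, F2rl2 (PAR3) and F2rl3 (PAR4), passed in no comparison with control, with log2 fold changes of 0.49 ± 0.18 and -0.28 ± 0.29 in RUNX1(41-214) and 0.27 ± 0.18 and 0.23 ± 0.29 in Runx1KO, and were named after their values were seen.

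Treml1 encodes TLT-1, a receptor held in the alpha granule membrane until platelets are activated. Its signal was 1578, 1033 and 1516 in RUNX1(41-214), 843, 929 and 722 in Runx1KO and 95.1, 132 and 137 in control cells. No group overlapped another, and the lowest Runx1KO array was several fold above the highest control array. Treml1 rose 10.4-fold in RUNX1(41-214) (log2 fold change 3.38 ± 0.22, SE, n = 3 each, adjusted p = 8.83e-06) and 6.34-fold in Runx1KO (2.67 ± 0.22, adjusted p = 0.000318). Of the 12393 genes, 11 had a larger absolute change in RUNX1(41-214) and 4 in Runx1KO. The difference of 0.72 ± 0.22 between RUNX1(41-214) and Runx1KO did not pass (adjusted p = 0.198).

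Selp encodes P-selectin, which carries leukocytes to activated platelets and endothelium and, like TLT-1, is stored in the granule membrane. Its signal was 2475, 2601 and 2254 in RUNX1(41-214), 1052, 669 and 835 in Runx1KO and 562, 518 and 620 in control cells. RUNX1(41-214) lay well above both other groups, which were closer to each other without overlap. Selp rose 4.25-fold in RUNX1(41-214) against control (2.09 ± 0.18, adjusted p = 7.19e-05) and 2.88-fold against Runx1KO (1.53 ± 0.18, adjusted p = 0.00222), and was at 0.56 ± 0.18 in Runx1KO against control (adjusted p = 0.366). Its other probe set had 856, 1042 and 3009 in RUNX1(41-214), 1176, 547 and 646 in Runx1KO and 1032, 640 and 609 in control cells. On that probe set the groups overlapped, replicate 3 of RUNX1(41-214) was high and nothing passed (0.92 ± 0.43 in RUNX1(41-214) against control, adjusted p = 0.380). With the mean of both probe sets Selp still passed against control and was at 1.21 against Runx1KO (adjusted p = 0.0594).

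**Figure D2:**
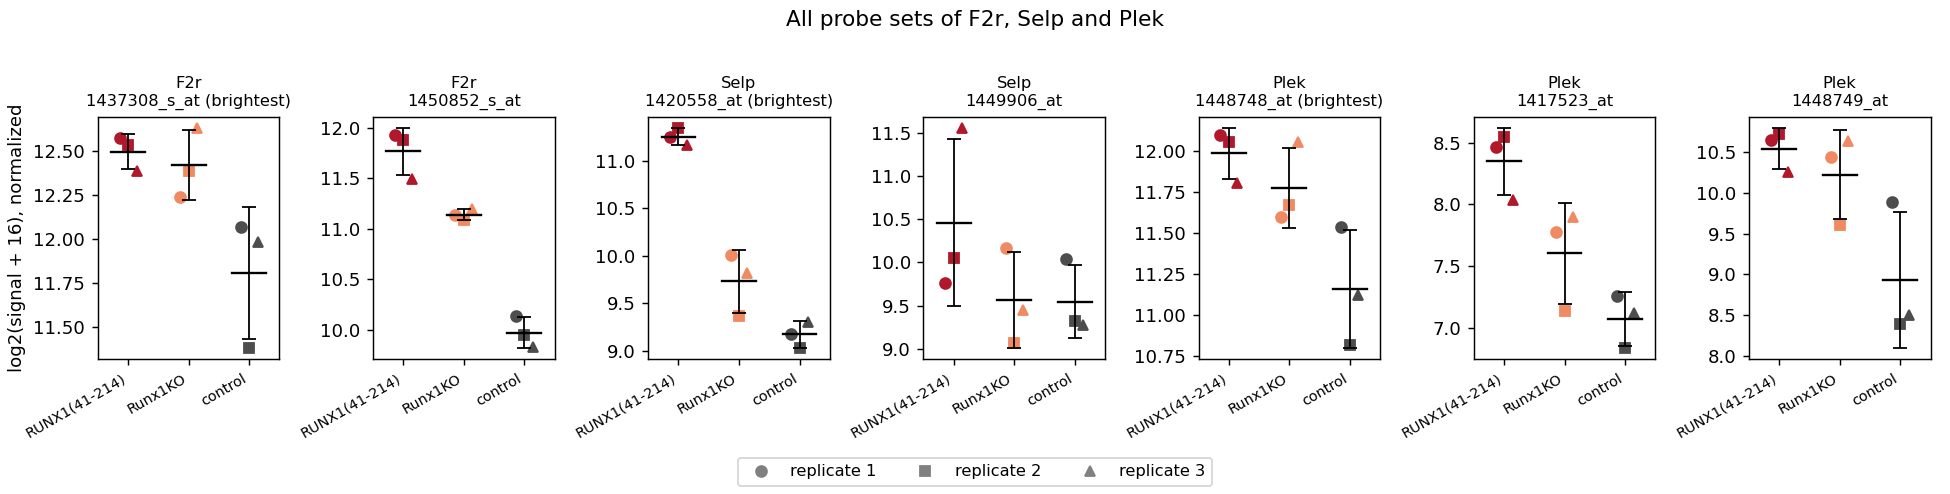
Normalized log2(signal + 16) on every probe set of F2r, Selp and Plek by array, with group mean (line) and SD (bars), n = 3 per group. On the dimmer F2r probe set the 3 groups are separated, and on the other Selp probe set RUNX1(41-214) replicate 3 stands alone above the other arrays.

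Pf4 encodes platelet factor 4, a chemokine of alpha granules that binds heparin. Its signal was 2612, 1644 and 3058 in RUNX1(41-214), 1694, 1205 and 1137 in Runx1KO and 1196, 1100 and 1925 in control cells. Control replicate 3 lay above every Runx1KO array and above 1 RUNX1(41-214) array. The log2 mean was 11.21 ± 0.46 in RUNX1(41-214), 10.38 ± 0.27 in Runx1KO and 10.45 ± 0.46 in control cells (SD, n = 3 each). The log2 fold change was 0.76 in RUNX1(41-214) against control (95% interval 0.18 to 1.34, adjusted p = 0.169), -0.07 in Runx1KO against control (-0.65 to 0.51, adjusted p = 0.989) and 0.83 in RUNX1(41-214) against Runx1KO (0.25 to 1.41, adjusted p = 0.230). None passed, and the upper limit in Runx1KO against control was below the lower limits of Gp5, Itga2b and Treml1 in that comparison.

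Ppbp encodes pro-platelet basic protein, the precursor of the neutrophil-attracting chemokine CXCL7. Its signal was 1803, 638 and 183 in RUNX1(41-214), 705, 425 and 236 in Runx1KO and 158, 201 and 90.1 in control cells. Every Runx1KO array lay above control, whereas RUNX1(41-214) replicate 3 fell within the control range and replicate 1 was 9.86 times as bright as it. The log2 mean was 9.28 ± 1.59 in RUNX1(41-214), 8.73 ± 0.72 in Runx1KO and 7.26 ± 0.55 in control cells (SD, n = 3 each). The log2 fold change was 2.03 ± 0.64 in RUNX1(41-214) (95% interval 0.62 to 3.43, adjusted p = 0.125) and 1.48 ± 0.64 in Runx1KO (0.07 to 2.88, adjusted p = 0.654). Without RUNX1(41-214) replicate 3 the first of these was 2.85 and passed (adjusted p = 0.0123), and without replicate 1 it was 1.26 (adjusted p = 0.391). The size of the Ppbp difference in RUNX1(41-214) therefore depended on which of these arrays was included.

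Plek encodes pleckstrin, a substrate of protein kinase C in platelets and leukocytes. Its signal was 4479, 4318 and 3557 in RUNX1(41-214), 3187, 3326 and 4011 in Runx1KO and 2978, 1807 and 2128 in control cells. Both groups lay above control without overlap, by small margins. Plek rose 1.77-fold in RUNX1(41-214) against control (0.83 ± 0.18, adjusted p = 0.0227) and was at 0.62 ± 0.18 in Runx1KO (adjusted p = 0.272). The call was lost without RUNX1(41-214) replicate 1 or 2 or control replicate 3 (0.77 to 0.81, adjusted p 0.0807 to 0.109). Its other probe sets were at 1.28 ± 0.26 and 1.61 ± 0.38 in RUNX1(41-214) against control, and both passed in the fit of every probe set (adjusted p = 0.0224 and 0.0457).

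**Figure D3:**
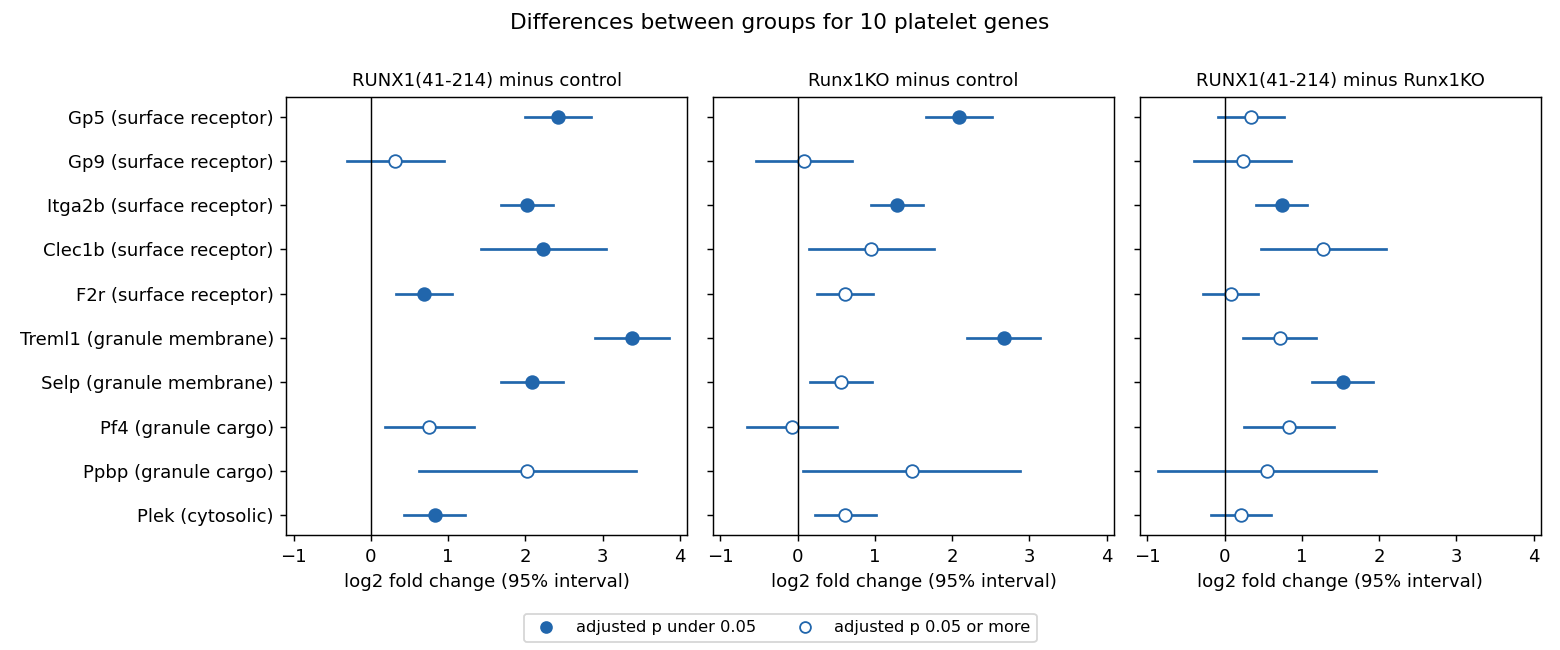
Log2 fold change of the 10 genes (points) with 95% intervals (lines) in RUNX1(41-214) against control, Runx1KO against control and RUNX1(41-214) against Runx1KO, n = 3 per group. Filled points passed an adjusted p of 0.05: 7, 3 and 2 genes, all higher, with the granule chemokines Pf4 and Ppbp open in every panel.

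Taken by role, 6 of the 7 receptor genes rose in RUNX1(41-214) against control, with Gp9 the exception, where 1.73% of all genes were called higher. These were 4 of the 5 surface receptors and 2 of the 2 granule membrane receptors, with median log2 fold changes of 2.02 and 2.74. The median was 2.09 over the 7 receptors and 1.39 over the 2 chemokines, against 0.02 over all genes. Of the 2 chemokines 0 passed in limma (2 of the 2 at an unadjusted p under 0.05, against 15.5% of all genes). In Runx1KO against control 3 of the 7 receptors rose, where 0.234% of all genes were called higher. These were 2 of the 5 surface receptors and 1 of the 2 granule membrane receptors, with medians of 0.95 and 1.61. Of the 2 chemokines 0 passed in limma (1 of the 2 at an unadjusted p under 0.05, as were 7.22% of all genes). The median was 0.95 over the 7 receptors and 0.70 over the 2 chemokines, against 0.00 over all genes. All 10 genes lay above control in RUNX1(41-214) and 9 of 10 in Runx1KO, where 52.5% and 49.2% of all genes did. Arrays did not overlap for 7 of the 10 in RUNX1(41-214), where 10% of all genes were higher without overlap, and for 8 of the 10 in Runx1KO, where 5.34% were.

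Between RUNX1(41-214) and Runx1KO, 2 of the 10 passed, Itga2b and Selp, both higher in RUNX1(41-214), where 0.299% of all genes were called higher. With any 1 of RUNX1(41-214) replicates 1 and 2, Runx1KO replicates 1 and 3 and control replicates 1 and 3 left out, 1 passed. In those fits 0.597% to 1.32% of all genes were called, in either direction. Without RUNX1(41-214) replicate 3, Itga2b did not pass and Clec1b did. All 10 had a mean above that of Runx1KO, against 53% of all genes, and 4 of the 10 did so without overlap of arrays (Itga2b, Treml1, Selp and Pf4), against 9.67%. For Pf4 this held on the normalized scale and not for the deposited signals, where RUNX1(41-214) replicate 2 (1644) lay below Runx1KO replicate 1 (1694). For Clec1b the deposited signals of these groups were apart by less than 1 unit and the normalized values overlapped.

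Within a group, receptor and granule genes did not follow 1 common order of arrays, although some of these orders rest on small differences. In RUNX1(41-214), replicate 3 was the lowest array for Ppbp, Clec1b, F2r, Plek and Selp, and the highest for Pf4, Gp9 and Gp5. For Gp5 and Selp the highest array was only 1.10 and 1.15 times the lowest. On the other Selp probe set replicate 3 was the highest (3009). In control cells replicate 3 was likewise the highest for Pf4 and the lowest for Ppbp. In Runx1KO replicate 1 was the highest for both chemokines. Replicate 3 was the lowest there for Ppbp, and for Pf4 it was the lowest by deposited signal whereas replicate 2 was the lowest after normalization. Across the RUNX1(41-214) arrays the SD of log2 signal was 1.59 for Ppbp and 0.76 for Clec1b, against 0.08 to 0.46 for the other 8 genes.

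**Figure D4:**
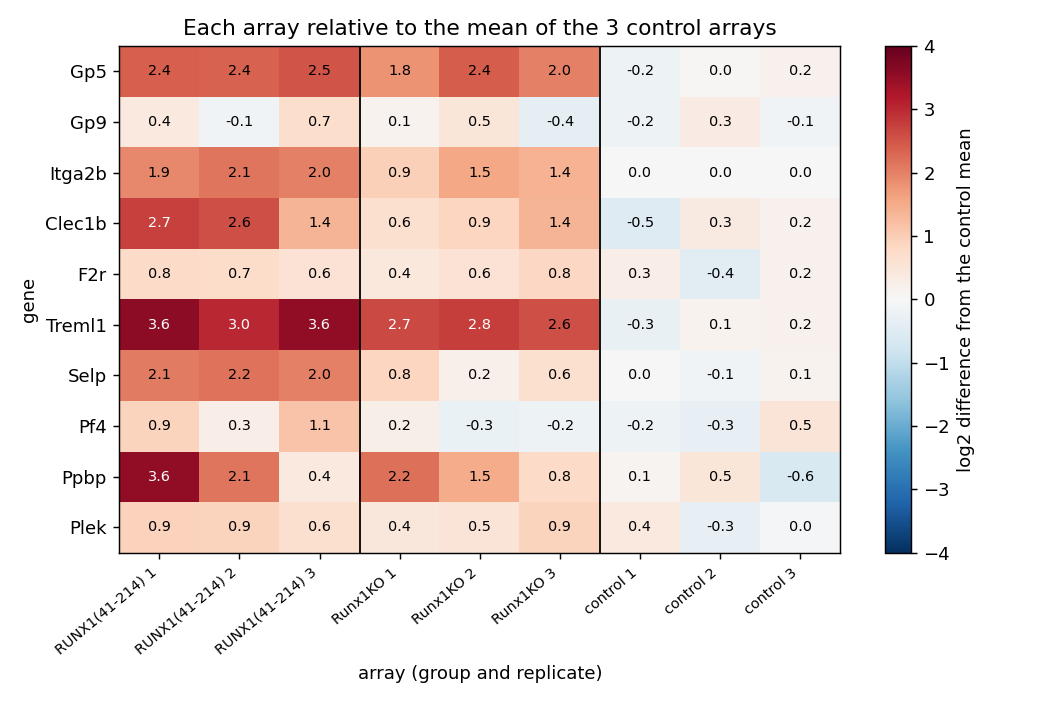
Normalized log2(signal + 16) of each gene on each array minus the mean of its 3 control arrays (colour and printed value). All genes but Gp9 and Pf4 are above their control mean on each of the 6 arrays of RUNX1(41-214) and Runx1KO. Ppbp and Pf4 take different orders among the 3 RUNX1(41-214) arrays.

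The likeness of 2 genes was described by the root mean square difference between their 9-array profiles, each relative to its own control mean. Of the 45 pairs, F2r and Plek were the closest (0.12 on the log2 scale) and Gp9 and Treml1 the farthest (2.32). The 2 chemokines were far apart, at 1.53, which was rank 38 of 45. Receptor pairs had a median of 1.03 (21 pairs, 0.50 to 2.32) and pairs of a receptor and a chemokine had a median of 1.09 (14 pairs, 0.48 to 2.20), so that the ranges overlapped almost fully. Itga2b, Clec1b and Selp lay within 0.50 to 0.53 of one another. These distances share the 9 arrays and the size of the group changes, and carry no test.

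Beyond the 10 genes, the 3 profiles most like Treml1 among 6415 other genes that were brighter than the median gene in at least 1 of the groups were the keratin gene Krt80 (0.44), the GTPase gene Gimap4 (0.46) and the tight junction gene Tjp1 (0.46). The 3 most like Pf4 were the lipid transporter gene Abca4 (0.27), the mitochondrial assembly factor gene Pet100 (0.31) and the ATP synthase subunit gene Atp5e (0.31). None of those 3 passed the threshold in any of the 3 comparisons (adjusted p 0.0613 to 0.987), which was also the case for Pf4. They were picked by likeness to Pf4 on these same arrays, so that this is no separate result.

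Upstream sequence was inspected for the receptor genes that rose in both groups and for the chemokine pair. Shown are the 250 bases before the RefSeq transcription start (GRCm38.p6), 5′ to 3′ on the strand of the gene, with matches on either strand in capitals. The letters searched were, for RUNX factors, TGTGGT or else TGCGGT. For GATA factors they were AGATAA or else TGATAA, and the same words with a final G (AGATAG or else TGATAG). For ETS factors they were AGGAAG. No match overlapped another.
Gp5 (chr16:30310782-30311031, minus strand): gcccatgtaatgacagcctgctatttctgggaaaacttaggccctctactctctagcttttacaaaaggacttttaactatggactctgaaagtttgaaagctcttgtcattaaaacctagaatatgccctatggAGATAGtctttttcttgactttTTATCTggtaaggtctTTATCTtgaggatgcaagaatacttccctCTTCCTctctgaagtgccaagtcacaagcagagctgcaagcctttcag
Itga2b (chr11:102469884-102470133, minus strand): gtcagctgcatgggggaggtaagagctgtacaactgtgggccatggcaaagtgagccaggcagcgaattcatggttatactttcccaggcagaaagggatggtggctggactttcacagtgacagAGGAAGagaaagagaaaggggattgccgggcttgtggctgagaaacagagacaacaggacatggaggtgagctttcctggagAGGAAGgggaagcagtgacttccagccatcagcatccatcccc
Treml1 (chr17:48359666-48359915, plus strand): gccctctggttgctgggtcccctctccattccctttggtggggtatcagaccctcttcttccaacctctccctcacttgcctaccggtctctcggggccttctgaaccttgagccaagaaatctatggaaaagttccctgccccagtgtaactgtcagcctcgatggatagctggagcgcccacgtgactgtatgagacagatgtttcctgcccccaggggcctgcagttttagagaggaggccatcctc
Pf4 (chr5:90772185-90772434, plus strand): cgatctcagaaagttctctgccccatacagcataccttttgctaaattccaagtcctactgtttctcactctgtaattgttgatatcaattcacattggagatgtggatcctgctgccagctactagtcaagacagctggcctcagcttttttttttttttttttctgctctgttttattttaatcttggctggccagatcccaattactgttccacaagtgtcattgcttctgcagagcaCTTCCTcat
Ppbp (chr5:90768268-90768517, plus strand): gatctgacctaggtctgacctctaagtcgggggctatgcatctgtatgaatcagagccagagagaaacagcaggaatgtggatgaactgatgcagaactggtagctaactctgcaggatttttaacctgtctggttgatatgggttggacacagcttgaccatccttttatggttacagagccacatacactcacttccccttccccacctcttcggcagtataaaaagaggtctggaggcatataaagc

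In these windows Gp5 held 3 GATA matches, which began 115, 93 and 77 bases before the start, and 1 ETS match. Itga2b held 2 ETS matches, Pf4 held 1 close to the start, and Treml1 and Ppbp held none of the letters searched. RUNX letters were present in 2 of the 10 upstream windows (Gp9 and F2r), against 18.6% of 32851 RefSeq windows of the same length. GATA letters were present in 2 of the 10 (Gp5 and Clec1b), against 26.5%, and ETS letters in 5 of the 10 (Gp5, Gp9, Itga2b, Selp and Pf4), against 29.5%. For Gp9 the window belongs to a start site inside the annotated gene span.

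Pf4 and Ppbp are next to each other among the protein-coding genes of mouse chromosome 5 in RefSeq (GRCm38.p6), with Cxcl5, another chemokine gene, on the far side of Ppbp. They nevertheless differed in their order among the RUNX1(41-214) arrays and among the control arrays. Cxcl5 was dim, with a log2 mean of 5.03 ± 0.33 in RUNX1(41-214), 4.71 ± 0.20 in Runx1KO and 4.34 ± 0.30 in control cells (SD, n = 3 each), and missed the threshold in RUNX1(41-214) against control, at 0.69 ± 0.20 (adjusted p = 0.0947). The chemokine genes Cxcl15, Cxcl1 and Cxcl2, farther along, had log2 means of 4.97 or less in each group and adjusted p-values of 0.442 or more, and were named after their values were seen.

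A wider list of 68 other platelet genes, of which 56 were measured, was also examined. In RUNX1(41-214) against control 5 of the 56 rose and 2 fell, where 1.73% of all genes were called higher and 2.56% lower, and the median log2 fold change was 0.22. Gng11, which encodes a G protein gamma subunit, rose by 1.26 ± 0.18 (SE, adjusted p = 0.00212), and Tgfb1, a growth factor stored in granules, rose by 1.29 ± 0.23 (adjusted p = 0.00859). The other rises were Lcp2 (1.16), an adaptor of platelet and T cell receptors, Cd84 (1.04), an adhesion receptor of the SLAM family, and Rab27b (0.99), a GTPase of granule secretion, which were named after their values were seen. Tbxa2r, the thromboxane receptor, fell by 2.13 (adjusted p = 0.00656), and Pdlim1, a cytoskeletal adaptor, fell by 1.33 (adjusted p = 0.00766). The dimmer Lcp2 probe set was at 0.79 (adjusted p = 0.0602 over all probe sets) and the dimmest of 3 Pdlim1 probe sets was at 0.10. The count of 7 was 3 without RUNX1(41-214) replicate 1 and 4 without RUNX1(41-214) replicate 2, where 2.41% and 2.38% of all genes were called.

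In Runx1KO against control 1 of the 56 passed, Gng11 (1.00 ± 0.18, adjusted p = 0.0458), and none fell, where 0.234% of all genes were called higher and 0.113% lower. The median was 0.19. That count was 2 without control replicate 2 and 0 in limma (9 to 15 at an unadjusted p under 0.05, against 7.22% of all genes with all arrays in the fit) when any 1 of RUNX1(41-214) replicates 1, 2 and 3, Runx1KO replicates 1 and 2 and control replicates 1 and 3 was left out. Between RUNX1(41-214) and Runx1KO 1 of the 56 passed, Pdlim1, which was lower in RUNX1(41-214) (-1.32 ± 0.24, adjusted p = 0.0176), where 1.06% of all genes were called lower. It did not pass without RUNX1(41-214) replicate 1 or 2 or Runx1KO replicate 1 or 2, which left 0 calls in limma (2 to 4 at an unadjusted p under 0.05, against 10.6% of all genes with all arrays in the fit).

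By role, 1 of 18 other receptors rose and 1 fell in RUNX1(41-214) against control, and 1 of 15 other granule proteins rose. Of 15 signalling and cytoskeletal genes 3 rose and 1 fell. Over all genes 1.73% were called higher in that comparison and 2.56% lower. Of 8 transcription factors of the lineage 0 passed there in limma (1 of 8 at an unadjusted p under 0.05, against 15.5% of all genes). Tal1 and Zfpm1, the 2 factors with the lowest p, were at 0.31 ± 0.11 (adjusted p = 0.189) and 0.49 ± 0.22 (adjusted p = 0.325). Vwf, which encodes the von Willebrand factor of granules, had signals of 586, 246 and 571 in RUNX1(41-214), 674, 709 and 692 in Runx1KO and 425, 1040 and 963 in control cells. It passed in no comparison and its mean was not above control in either group (log2 fold change -0.72 ± 0.36 in RUNX1(41-214) and -0.12 ± 0.36 in Runx1KO).

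Of 6 listed markers of mature megakaryocytes and platelets, Itgb3 and Vwf were measured, and Itgb3 was near the bottom of the scale. Of the sorting genes, Kit had signals of 2914 to 3783 in RUNX1(41-214), 2795 to 3491 in Runx1KO and 1981 to 2567 in control cells, and rose in RUNX1(41-214) against control (0.57 ± 0.14, adjusted p = 0.0415), while Cd34 passed in no comparison with control and Ly6a had no such probe set. Il7r, whose protein was gated out, had 24.6 to 43.8 in RUNX1(41-214), 380 to 1179 in Runx1KO and 280 to 1400 in control cells, and fell in RUNX1(41-214) against control (-3.69 ± 0.51, adjusted p = 0.00150). The Runx1 signal was 1815 to 2093 in RUNX1(41-214), 2417 to 3476 in Runx1KO and 931 to 1701 in control cells and passed in no comparison. Where its probes lie relative to the deleted exon is not known here, so that it does not check the deletion.

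Markers of other cell types moved with some of these differences. Of 8 mast cell and basophil markers 7 were measured, and their summed signal was 5077 to 6068 in RUNX1(41-214), 2603 to 4004 in Runx1KO and 482 to 1330 in control cells. Cpa3 and Hdc made up most of that sum in RUNX1(41-214) and Runx1KO. Cpa3, Hdc and Ms4a2 rose in RUNX1(41-214) and Cpa3 in Runx1KO. Fcer1a and Mcpt8 lay below control without passing, at -1.29 and -0.56 in RUNX1(41-214) and -0.88 and -0.87 in Runx1KO, and the median over the 7 markers was 0.15 in RUNX1(41-214) and -0.09 in Runx1KO. Cma1 and Tpsb2 stayed at signals of 78.3 or less on all 9 arrays and passed in neither group. Summed endothelial markers (6 of 6 measured) were 712 to 846 in RUNX1(41-214), 1074 to 1612 in Runx1KO and 607 to 1012 in control cells, with Tie1 and Emcn the brightest, Cdh5 at 36.2 or less and no gene past the threshold against control. Summed B cell markers (6 of 7) were 832 to 949 in RUNX1(41-214), 674 to 1488 in Runx1KO and 973 to 1110 in control cells, with Cd79b and Igll1 the brightest, and Vpreb1 fell in RUNX1(41-214) against control (-1.54, adjusted p = 0.0495). Summed T cell markers (4 of 6, Cd8a and Cd3d the brightest) were low, at 95.5 to 108 in RUNX1(41-214), 56.9 to 75.0 in Runx1KO and 62.1 to 96.1 in control cells. Summed erythroid markers (5 of 8, Klf1 and Epor the brightest) were 631 to 1558 in RUNX1(41-214), 288 to 869 in Runx1KO and 303 to 2196 in control cells, and Alas2 and Slc4a1 rose in RUNX1(41-214) against control (2.20 and 2.91, adjusted p = 0.0102 and 0.0109). Klf1 and Epor were at -0.82 and -0.22 there without passing, and the median over the 5 erythroid markers was 0.05. The summed neutrophil (9 of 9, Mpo and Prtn3 the brightest) and macrophage (6 of 6, Csf1r and Cd68 the brightest) markers overlapped among the 3 groups. The part of these cell types in the platelet gene changes was not tested.

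The log2 ratio of 3′ to 5′ Gapdh control signal, a sign of RNA integrity, was 2.13 in Runx1KO replicate 3 and 1.85 in control replicate 2, and 0.979 to 1.29 on the other 7 arrays. Without these 2 arrays the number of the 10 genes past the threshold was again 7 in RUNX1(41-214) and 3 in Runx1KO against control. With all arrays in the fit, 1.73% of all genes were called higher and 2.56% lower in RUNX1(41-214), and 0.234% and 0.113% in Runx1KO. Without the 2 arrays 6.16% and 0.258% of all genes were called in these comparisons, in either direction. In RUNX1(41-214) the log2 fold change of F2r was then 0.47 in place of 0.69 and that of Plek 0.66 in place of 0.83. Selp was slightly lower there, and Gp5, Itga2b, Clec1b and Treml1 were higher. In Runx1KO F2r, which had not passed, was at 0.29 in place of 0.61. Array medians ran from 125 to 147 signal units.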

How the data were processed

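Signals of 22690 probe sets on 9 arrays were used as deposited by the authors, as linear intensity values from 0.53 to 20215. Per the labels' protocols, total RNA from Qiagen microcolumns was biotin-labelled by the two-cycle Affymetrix procedure, which amplifies the material, so that signals of different genes are not amounts. How probes were summarised and scaled is not stated there. The 64 control probe sets were left out. Values became log2(signal + 16) and were quantile normalized, because array medians spanned 0.211 (limit 0.2). Names came from the platform annotation: 20380 probe sets had 1 symbol, 691 several and 1555 none. Each of 12393 genes was read from its probe set with the highest mean.

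The 9 arrays entered 1 linear model of 3 group means (limma 3.58.1, R 4.3.3, lmFit and eBayes with trend). With 3 arrays a group the median SE of a log2 fold change was 0.203. The 3 contrasts were tested two-sided, with Benjamini-Hochberg adjustment over 12393 genes and a threshold of 0.05. On simulated data for RUNX1(41-214) against control, with 200 of 12393 genes changed, the procedure recovered 95.5% of genes changed by a fold of 4 and 49.3% by a fold of 2, with 3 false calls of 108. For Runx1KO against control these were 93.9% and 55.2%, with 4 of 111, and for RUNX1(41-214) against Runx1KO 92.4% and 52.2%, with 8 of 111.

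The 10 genes, the lists and the alternatives were chosen with earlier results of these data known. The rule names all 10 genes, up to 4 other platelet genes past the threshold per contrast (or the 2 with the lowest p), the 3 genes most like Treml1 and Pf4, Runx1, the sorting genes and the 2 brightest genes per marker list. No block was used, because the labels tie the replicate numbers to no litter, batch or day. Deviations of same-numbered replicates had correlations of -0.174 to 0.418. For control and Runx1KO these were 0.027, 0.409 and 0.418 in replicates 1, 2 and 3, against 0.257 or less between differently numbered arrays. Alternatives were no quantile normalization, offsets of 1 and 50, no dim genes, the mean of probe sets, all probe sets, array weights, the 6 arrays compared, a replicate block and each array left out. Promoter sequences are from RefSeq, GRCm38.p6, which held all 10 genes.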

Additional observations from a re-analysis of the deposited data

How the results depend on the processing

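Of 570 fold changes of the 10 genes under the 19 alternatives, 537 kept their direction and their side of the threshold, 21 lost and 6 gained a call, and 6 changed sign. All 6 sign changes were of uncalled values and came from leaving out 1 array: Gp9 in Runx1KO against control at -0.12 without Runx1KO replicate 2 and -0.01 without control replicate 1 (-0.12 to 0.31 over all arrays left out), Pf4 there at 0.02 without Runx1KO replicate 2 and 0.19 without control replicate 3 (-0.23 to 0.19), and, in RUNX1(41-214) against Runx1KO, F2r at -0.014 without Runx1KO replicate 1 and Ppbp at -0.21 without RUNX1(41-214) replicate 1 (-0.21 to 1.37). Gp5, Itga2b, Clec1b, Treml1 and Selp in RUNX1(41-214) against control, and Gp5 and Treml1 in Runx1KO against control, passed under all 19.

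With 1 array left out in turn, 5 to 7 of the 10 genes passed in RUNX1(41-214) against control, 3 in Runx1KO against control and 1 to 2 in RUNX1(41-214) against Runx1KO. Of the 56 other platelet genes, 3 to 9, 0 to 2 and 0 to 1 passed in these fits. Over all genes 2.38% to 4.95%, 0.113% to 0.412% and 0.597% to 1.68% were called there, in either direction. In RUNX1(41-214) against Runx1KO the count of the 10 genes was 1 with the mean of probe sets, with the 6 arrays alone and without both arrays of high Gapdh ratio. In those settings 1.18%, 1.41% and 1.05% of all genes were called. Without both arrays of high Gapdh ratio, 12 passed in RUNX1(41-214) against control, where 6.16% of all genes were called. With all arrays in the fit 1.73% of all genes were called higher there and 2.56% lower. In Runx1KO against control the count of 1 was 0 in limma with an offset of 1, with all probe sets tested and with the 6 arrays alone (13, 12 and 10 at an unadjusted p under 0.05). It was 3 without dim genes (of 36 left in that fit), with array weights and without both arrays of high Gapdh ratio. In those settings 0.829%, 0.266% and 0.258% of all genes were called. In RUNX1(41-214) against Runx1KO the count of 1 was 0 in limma with the mean of probe sets (9 at an unadjusted p under 0.05). With the replicate number as a block, 8, 3 and 2 of the 10 genes passed, as did 8, 2 and 1 of the other platelet genes. Over all genes 4.35%, 0.387% and 1.38% were called in that fit. The labels do not tie the replicate number to a shared litter or day. Ppbp in RUNX1(41-214) against control was among these calls (adjusted p = 0.0180). Ppbp also passed in that comparison with array weights (2.61, adjusted p = 0.0379). F2r passed in Runx1KO against control with the mean of probe sets (0.89, adjusted p = 0.0271). The cause of these changes was not tested. Dim genes such as Clec1b are read close to the offset, which limits the precision of their folds.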
